A study of Mus musculus with 12 samples.

Results

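The dopamine-cAMP-PKA signalling chain of the striatum was followed through 9 genes chosen by symbol for their role: the G protein subunits Gnal and Gng7, the adenylyl cyclase Adcy5, the regulatory subunits Prkar1b and Prkar2b of protein kinase A (PKA), and the PKA targets Ppp1r1b, Arpp21, Arpp19 and Ptpn5. They are 9 of 55487 genes listed in every library and 9 of 21309 that passed the filter on low counts, so all members were tested. RNA came from the striatum of 12 mice, 3 per group, with 1 library per mouse. WT mice were C57BL/6J. HD mice were heterozygous for the neo-deleted zQ175 allele, an expanded CAG repeat in the mouse huntingtin gene that is used as a model of Huntington's disease. The cGAS-KO mice lacked cGAS, a sensor of cytosolic DNA that acts through STING, and the cGAS-KO;HD mice, named Q175DN-cGAS-KO in the series and double mutants below, carried both alleles. The study asked whether loss of cGAS alters disease in the knock-in mice. Age, sex and litter of the mice, and the part of Cgas that was removed, were not given in the sources used here.

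In medium spiny neurons, the projection neurons of the striatum, dopamine D1 and adenosine (Adora2a) receptors act through Golf, a G protein whose alpha subunit is encoded by Gnal and whose gamma subunit is encoded by Gng7. Golf stimulates adenylyl cyclase type 5, the cAMP so made releases the catalytic subunits of PKA from their regulatory subunits, and dopamine D2 receptors oppose the cyclase through Gi or Go. PKA phosphorylates DARPP-32, the product of Ppp1r1b, which then inhibits protein phosphatase 1, and it also acts on ARPP-21, ARPP-19 and the tyrosine phosphatase STEP (Ptpn5).

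Totals lay between 59195327 and 72765623 counts per library. The targeted gene Htt fell in both knock-in groups (log2 change -0.32 ± 0.08 and -0.33 ± 0.08, edgeR adjusted p = 0.0389 and 0.0300), and Cgas, a rare transcript, measured 1.41 ± 0.129 CPM in WT and 0.777 ± 0.177 CPM in cGAS-KO (mean ± SD, n = 3), a difference that was not called (log2 change -0.86 ± 0.24, edgeR adjusted p = 0.919). Between HD (1.15 ± 0.0963 CPM) and the double mutants (1.03 ± 0.203 CPM) the libraries overlapped (log2 change -0.16 ± 0.23, edgeR adjusted p = 0.856). Counts taken over all of Cgas therefore say little about these labels. CPM values are counts scaled to library size with TMM factors. Every one of 12 medium spiny neuron markers was detected in each library, the lowest value being 6.38 CPM for Gpr6. Libraries also differed in markers of neighbouring tissue. The summed level of 10 cortical projection neuron markers was 212, 692 and 810 CPM in WT replicates 1, 2 and 3 and 390, 265 and 1172 CPM in those of cGAS-KO, against 191 to 242 CPM for HD and 241 to 367 CPM for double mutants. Of 7 markers of thalamus, septum and pallidum, the sum ranged over 254 to 648 CPM for WT, 508 to 940 CPM for HD, 203 to 641 CPM for cGAS-KO and 356 to 529 CPM for double mutants, with the highest value in HD replicate 3. Choroid plexus and ependyma markers summed to 1884, 140 and 70.9 CPM in the WT libraries, and to 887, 1996 and 272 CPM in those of HD. The cGAS-KO sums were 836, 915 and 216 CPM and the double-mutant sums 1146, 1200 and 94.9 CPM. In cGAS-KO replicate 3, mitochondrially encoded genes took 11.5% of counts, against 5.30% to 9.03% elsewhere. In none of these lists was a marker at 0 in any library. Xist was high (1149 to 1588 CPM) in WT replicate 1, cGAS-KO replicate 3, HD replicates 1 and 2 and double-mutant replicates 2 and 3. It was at most 2.53 CPM in the other libraries. HD and the double mutants thus each held more libraries with high Xist than WT and cGAS-KO, so Xist level was not balanced in either knock-in comparison.

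Promoter windows are shown because 6 members fell together, and they fall into different kinds of sequence. RefSeq (GRCm38.p6) gave windows for 7 of the 9 members, and the 250 bases upstream of the most upstream start in that table are printed 5′ to 3′ on the gene's strand for 5 members that fell and for Prkar2b, which was not called. The window of Arpp21 lies inside the gene span that GENCODE gives, downstream of the start annotated there. Capitals mark the GC box GGGCGG on either strand.
Gng7 (chr10:81014926-81015175, minus strand): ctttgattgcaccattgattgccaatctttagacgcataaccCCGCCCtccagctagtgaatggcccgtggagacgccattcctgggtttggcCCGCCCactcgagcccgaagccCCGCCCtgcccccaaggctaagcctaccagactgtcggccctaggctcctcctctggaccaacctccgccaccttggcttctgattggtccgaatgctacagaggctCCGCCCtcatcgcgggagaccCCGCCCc
Adcy5 (chr16:35154614-35154863, plus strand): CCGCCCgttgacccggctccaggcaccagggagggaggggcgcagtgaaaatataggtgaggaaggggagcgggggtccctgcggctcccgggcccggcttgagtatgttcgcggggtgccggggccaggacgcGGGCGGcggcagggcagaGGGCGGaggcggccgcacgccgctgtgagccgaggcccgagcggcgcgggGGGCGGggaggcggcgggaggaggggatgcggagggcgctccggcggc
Arpp21 (chr9:112233723-112233972, minus strand): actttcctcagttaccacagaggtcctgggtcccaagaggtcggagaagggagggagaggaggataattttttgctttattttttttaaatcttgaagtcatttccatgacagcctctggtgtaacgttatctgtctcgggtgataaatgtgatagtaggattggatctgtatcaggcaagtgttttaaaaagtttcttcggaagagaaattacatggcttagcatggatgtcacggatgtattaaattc
Arpp19 (chr9:75037364-75037613, plus strand): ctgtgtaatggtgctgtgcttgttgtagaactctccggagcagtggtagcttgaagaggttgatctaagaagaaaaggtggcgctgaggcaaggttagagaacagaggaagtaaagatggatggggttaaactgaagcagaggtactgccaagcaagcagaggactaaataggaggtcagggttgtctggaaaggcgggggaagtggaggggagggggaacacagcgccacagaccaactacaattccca
Ptpn5 (chr7:47133685-47133934, minus strand): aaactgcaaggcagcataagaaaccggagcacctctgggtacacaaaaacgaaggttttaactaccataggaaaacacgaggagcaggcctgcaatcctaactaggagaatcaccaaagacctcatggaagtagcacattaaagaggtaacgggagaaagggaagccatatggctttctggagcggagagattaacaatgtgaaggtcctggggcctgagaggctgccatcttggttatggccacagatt
Prkar2b (chr12:32061278-32061527, minus strand): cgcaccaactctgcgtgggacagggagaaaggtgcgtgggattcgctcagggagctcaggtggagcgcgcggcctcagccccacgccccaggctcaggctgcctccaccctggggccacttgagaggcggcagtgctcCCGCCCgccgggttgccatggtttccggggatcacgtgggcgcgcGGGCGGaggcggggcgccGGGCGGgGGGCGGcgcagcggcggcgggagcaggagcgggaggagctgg
GC content was 62.8% for Gng7, 78.0% for Adcy5 and 75.6% for Prkar2b, but 40.4% for Arpp21, 51.2% for Arpp19 and 48.0% for Ptpn5, against a median of 52.4% over all 32851 windows of this length. The window of Gng7 held 5 GC boxes, that of Adcy5 4 and that of Prkar2b 4, while those of Arpp21, Arpp19 and Ptpn5 held none. Among the printed windows of members that fell, 2 of 5 had GC boxes, and the window of Prkar2b, which was not called, had as many as that of Adcy5. The most upstream window of Prkar1b, also not called, is not printed. It held 1 GC box at a GC content of 67.2%. Another window of Ptpn5 did hold a GC box. Over all 23 member windows, alternative starts included, the GC box was found in 7, against 32.7% of all windows. The cAMP response element TGACGTCA, a palindrome, was in none of the 23 and in 1.55% of all windows. Its shorter form TGACG, which lies inside the full element and was searched on both strands, was in 4 of the 23 and in 17.8% of all windows. A letter match is not evidence of binding.

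Per kilobase of exon, Ppp1r1b was the most abundant member in WT at 298 ± 52.6 CPM per kb (mean ± SD, n = 3 here and below). The length is that of all annotated exons of a gene (17428 bases for Arpp21, 11172 for Gnal), not of the transcripts expressed. Ranks between genes therefore depend on the annotation. Prkar1b (140 ± 9.16) and Gng7 (134 ± 23.1) followed and did not differ beyond their spread. Adcy5 came next at 95.5 ± 11.7 CPM per kb. Ptpn5 (68.7 ± 8.95), Arpp19 (64.6 ± 16.2), Gnal (50.9 ± 4.96) and Arpp21 (42.8 ± 9.02) formed a run in which each overlapped its neighbour within 1 SD, and Prkar2b was lowest at 26.8 ± 3.87 CPM per kb. In HD the order changed at the top. There Prkar1b, at 126 ± 2.98 CPM per kb, and Ppp1r1b, at 122 ± 41.9, did not differ beyond their spread. Gng7 stood at 71.4 ± 19.1, and Adcy5 (46.9 ± 7.32), Ptpn5 (44.6 ± 7.38) and Gnal (41.2 ± 7.34) lay within 1 SD of each other. Arpp19 (24.5 ± 5.88), Prkar2b (22.0 ± 4.27) and Arpp21 (18.1 ± 5.80) were lowest and overlapped. Among cGAS-KO values the leading value was again that of Ppp1r1b (307 ± 50.2 CPM per kb), and in the double mutants Prkar1b (136 ± 1.70) and Ppp1r1b (131 ± 12.0) overlapped, as in HD.

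**Figure D1:**
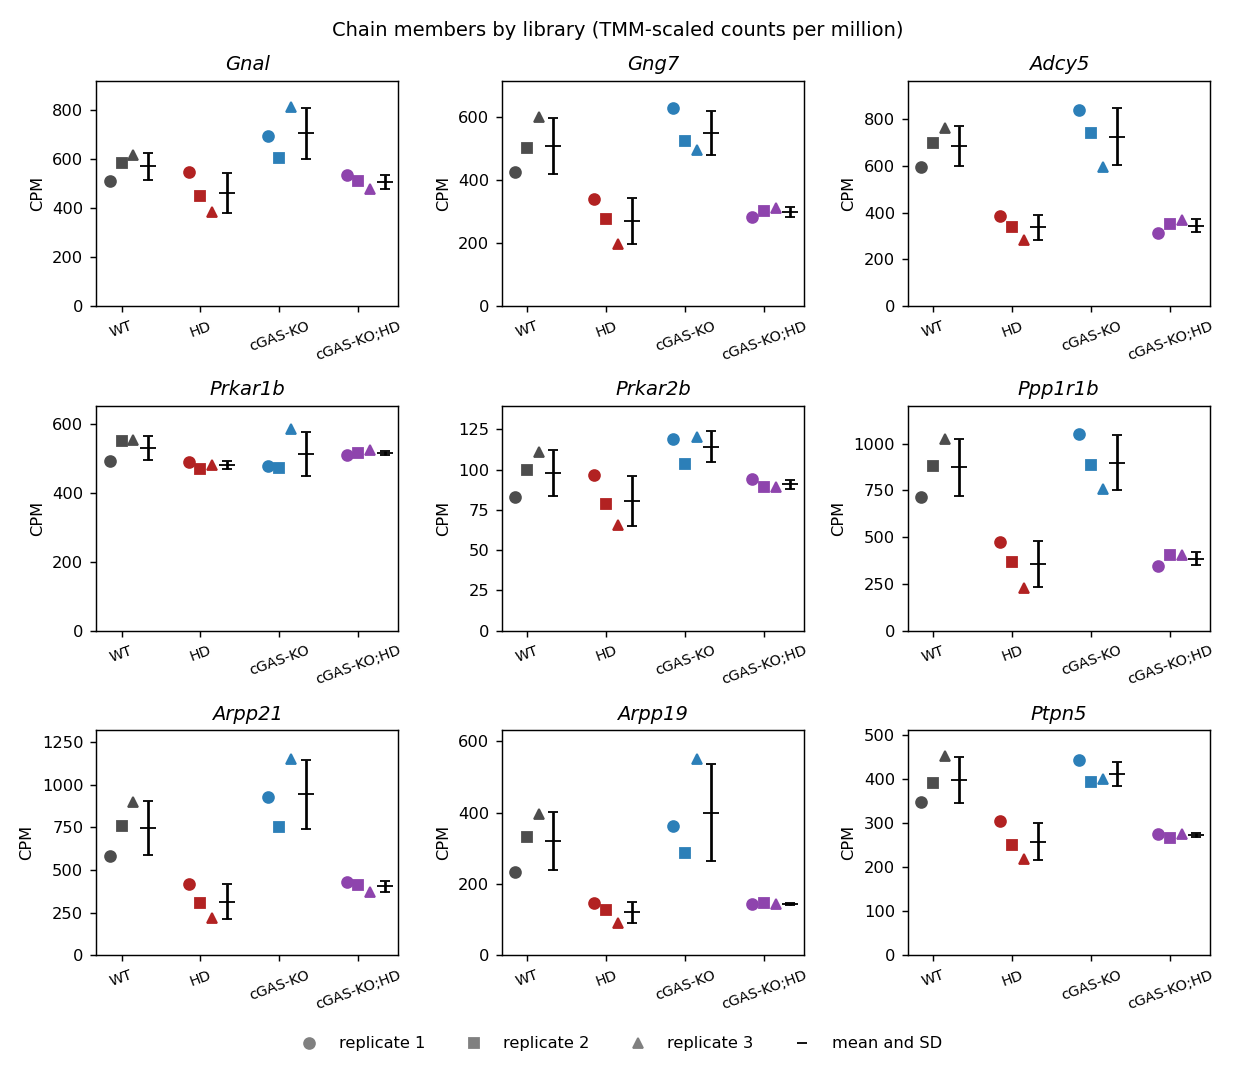
TMM-scaled CPM of the 9 members, on a linear axis from 0, with 1 point per library (marker shape gives the replicate number) and the mean with SD beside each group of 3. Points of Ppp1r1b, Adcy5, Gng7, Arpp21, Arpp19 and Ptpn5 in HD and the double mutants lie below every WT and cGAS-KO point, while Prkar1b stays between 469 and 587 CPM in all 12 libraries.

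The comparison of HD with WT addresses the knock-in allele where cGAS is present. Of the 9 members, 6 fell (Gng7, Adcy5, Ppp1r1b, Arpp21, Arpp19 and Ptpn5), none rose, and Gnal, Prkar2b and Prkar1b were not called, by the quasi-likelihood test of edgeR, with p-values adjusted over all genes tested (Benjamini-Hochberg) and a threshold of 0.05. Over all 21309 genes, 4.1% were called and 2.67% were called lower. The median log2 change of the members was -0.91 and that of all genes tested 0.01. The same 6 fell in the double mutants against cGAS-KO, where 3.96% of all genes were called and 2.52% were called lower, with a member median of -0.88 against 0.00 for all genes. These 2 comparisons share no library, but both were tested in a single fit of all 12 libraries that pools their spread. The members were chosen with earlier results of these data known, so their counts and medians beside those of all genes are descriptions. The first count was 2 without WT replicate 2, without WT replicate 3 or without HD replicate 2, and 3 on the compared groups alone. The second was 3 without cGAS-KO replicate 1, 1 without double-mutant replicate 1 and 2 without double-mutant replicate 2. Shares of all genes called in these fits are not given here. A loss particular to the members therefore cannot be told apart from fewer calls over all genes. The members' log2 changes stayed negative in all of these fits except that of Prkar1b. In bulk tissue, fewer neurons of a type and less RNA per neuron cannot be told apart, and this holds for every decrease given below.

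At the head of the chain, Gnal (chr18:67088216-67226792, plus strand, GENCODE M21 on GRCm38 for this and the following gene positions), which encodes the alpha subunit of Golf, measured 508, 584 and 615 CPM in WT replicates 1 to 3 and 547, 449 and 384 CPM in HD. The groups overlapped, since HD replicate 1 exceeded WT replicate 1. Its log2 change was -0.31 ± 0.14 (SE, 95% interval -0.60 to -0.01), with an edgeR adjusted p of 0.242. In cGAS-KO it measured 692, 605 and 811 CPM and in the double mutants 534, 509 and 477 CPM, so that all double mutants were below all cGAS-KO libraries. That log2 change was -0.47 ± 0.14 (interval -0.76 to -0.18) with an edgeR adjusted p of 0.0756. It passed with DESeq2 (adjusted p = 0.0153) and without cGAS-KO replicate 2 (edgeR adjusted p = 0.0438). Counts of Mppe1, whose exons overlap Gnal on the opposite strand, came to 2.58% of those of Gnal. The kit kept strand, and use of it in counting was not given in the sources used here.

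Gng7 (chr10:80948624-81014945, minus strand), the gamma subunit that pairs with Golf in the striatum, measured 424, 500 and 599 CPM in WT and 340, 275 and 196 CPM in HD. No HD library reached the lowest WT library, and HD replicate 3 was lowest of all. Gng7 fell by 0.91 ± 0.18 on the log2 scale, to 53.2% of WT (edgeR adjusted p = 0.0141). In cGAS-KO it measured 626, 522 and 495 CPM and in the double mutants 281, 302 and 309 CPM, again without overlap, and the fall was 0.88 ± 0.18 in log2 units (edgeR adjusted p = 0.0164). The first call was lost without WT replicate 2 (0.0556), WT replicate 3 (0.0761) or HD replicate 2 (0.0638), and on the compared groups alone (0.0805). Without cGAS-KO replicate 1 or double-mutant replicate 1, 2 or 3 the second was lost (0.0730, 0.0844, 0.0683 and 0.0517).

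Adcy5 (chr16:35154877-35305738, plus strand), the main cyclase of medium spiny neurons, had the smallest adjusted p of the members in both comparisons. It measured 597, 697 and 764 CPM in WT and 388, 340 and 283 CPM in HD. Every HD library was below every WT library by at least the distance between 388 and 597 CPM. Adcy5 fell by 1.03 ± 0.14 on the log2 scale, to 49.1% of WT (edgeR adjusted p = 0.00213). The cGAS-KO libraries held 840, 742 and 597 CPM, the lowest being replicate 3, and the double mutants 315, 350 and 369 CPM. Here it fell by 1.08 ± 0.14, to 47.4% of cGAS-KO (edgeR adjusted p = 0.00136). It was called in both comparisons under every one of the 15 other settings tried for each, with adjusted p of at most 0.0167 and 0.0111.

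The regulatory subunits of PKA behaved differently from the cyclase above them. Prkar1b (chr5:139017306-139150001, minus strand), a type I subunit of neurons, measured 491, 551 and 552 CPM in WT and 491, 469 and 482 CPM in HD. HD values sat just under the lowest WT value, and the log2 change was -0.15 ± 0.09 (interval -0.34 to 0.05, edgeR adjusted p = 0.426). In cGAS-KO it measured 480, 473 and 587 CPM and in the double mutants 511, 515 and 524 CPM, with overlap. The log2 change there was 0.01 ± 0.09, and its interval of -0.19 to 0.21 does not reach the size of the change of any of the 6 members that fell. Prkar2b (chr12:31958476-32061296, minus strand), a type II subunit, measured 82.9, 99.7 and 111 CPM in WT and 96.7, 78.7 and 65.7 CPM in HD, which overlap. Its log2 change was -0.28 ± 0.13 (interval -0.57 to 0.00, edgeR adjusted p = 0.266). All 3 double mutants (94.0, 89.3 and 89.3 CPM) were below all 3 cGAS-KO libraries (119, 103 and 120 CPM), and the log2 change was -0.33 ± 0.13 (interval -0.62 to -0.05, edgeR adjusted p = 0.207).

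Ppp1r1b (chr11:98348404-98357796, plus strand) encodes DARPP-32, the PKA-controlled inhibitor of protein phosphatase 1 that marks medium spiny neurons. It measured 717, 878 and 1025 CPM in WT and 472, 369 and 228 CPM in HD, without overlap. HD replicate 3 was lowest, and it also had the lowest summed level of medium spiny neuron markers (838 CPM). Ppp1r1b fell by 1.29 ± 0.23 on the log2 scale, to 40.8% of WT (edgeR adjusted p = 0.00927). The cGAS-KO libraries measured 1052, 884 and 759 CPM and the double mutants 344, 403 and 407 CPM, and the gene fell by 1.22 ± 0.23, to 42.8% of cGAS-KO (edgeR adjusted p = 0.0119). Fitted on the compared groups alone, the change in HD missed the threshold (0.0715). That in the double mutants missed it without cGAS-KO replicate 1 (0.0533) or double-mutant replicate 1 (0.0672) or 2 (0.0507), and with no low-count filter (0.0554).

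Arpp21 (chr9:112065091-112235938, minus strand), whose short product ARPP-21 is a PKA substrate that binds calmodulin once phosphorylated, measured 583, 760 and 897 CPM in WT and 419, 309 and 218 CPM in HD. No library of one group entered the range of the other. It fell by 1.24 ± 0.23 on the log2 scale, to 42.2% of WT (edgeR adjusted p = 0.0117). In cGAS-KO it measured 926, 751 and 1150 CPM and in the double mutants 428, 415 and 369 CPM, with a fall of 1.22 ± 0.23 (edgeR adjusted p = 0.0130). The highest library was cGAS-KO replicate 3, which also had the highest cortical marker sum. Without that library the double-mutant change was -1.06 and no longer called (edgeR adjusted p = 0.0559), and the same held without double-mutant replicate 1, 2 or 3 (0.0545, 0.0573 and 0.0548). In HD the call was lost without WT replicate 2 (0.0509), WT replicate 3 (0.0600) or HD replicate 2 (0.0576), and on the compared groups alone (0.0703). With no low-count filter both missed the threshold (0.0505 and 0.0554). Gene counts do not separate the short ARPP-21 transcripts from longer ones of the same locus.

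Arpp19 (chr9:75037614-75060313, plus strand), whose product inhibits protein phosphatase 2A after phosphorylation by the Greatwall kinase Mastl and is also a PKA substrate, had the largest log2 change of the members in both knock-in comparisons. It measured 235, 331 and 395 CPM in WT and 148, 126 and 90.0 CPM in HD, and every HD library lay below every WT library. The fall was 1.40 ± 0.25 on the log2 scale, to 37.9% of WT (edgeR adjusted p = 0.0124). Double mutants gave 144, 146 and 143 CPM, a narrow range, against 362, 287 and 550 CPM in cGAS-KO. It fell by 1.47 ± 0.25 on the log2 scale, to 36.1% of cGAS-KO (edgeR adjusted p = 0.00958). Leaving out WT replicate 2 (0.0531), WT replicate 3 (0.0580) or HD replicate 2 (0.0517) ended the first call, and leaving out double-mutant replicate 1 (0.0509) ended the second. As for Arpp21, cGAS-KO replicate 3 was the highest library. Without that library the double-mutant change of Arpp19 was -1.18, smaller in size than those of Ppp1r1b (-1.34) and Adcy5 (-1.21).

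Ptpn5 (chr7:47077795-47133684, minus strand) encodes STEP, a striatum-enriched tyrosine phosphatase that PKA phosphorylation inhibits. Its decrease was the smallest of the 6. Libraries of WT measured 350, 392 and 453 CPM and those of HD 304, 251 and 220 CPM, without overlap. Ptpn5 fell by 0.62 ± 0.12 on the log2 scale, to 64.9% of WT (edgeR adjusted p = 0.0117). In cGAS-KO it measured 444, 393 and 401 CPM and in the double mutants 277, 268 and 277 CPM, a fall of 0.59 ± 0.12 (edgeR adjusted p = 0.0150). The change in HD was not called without WT replicate 2 (0.0507), WT replicate 3 (0.0703), HD replicate 2 (0.0638) or HD replicate 3 (0.0551), nor that in the double mutants without cGAS-KO replicate 1 (0.0682) or double-mutant replicate 1 (0.0638) or 2 (0.0740).

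**Figure D2:**
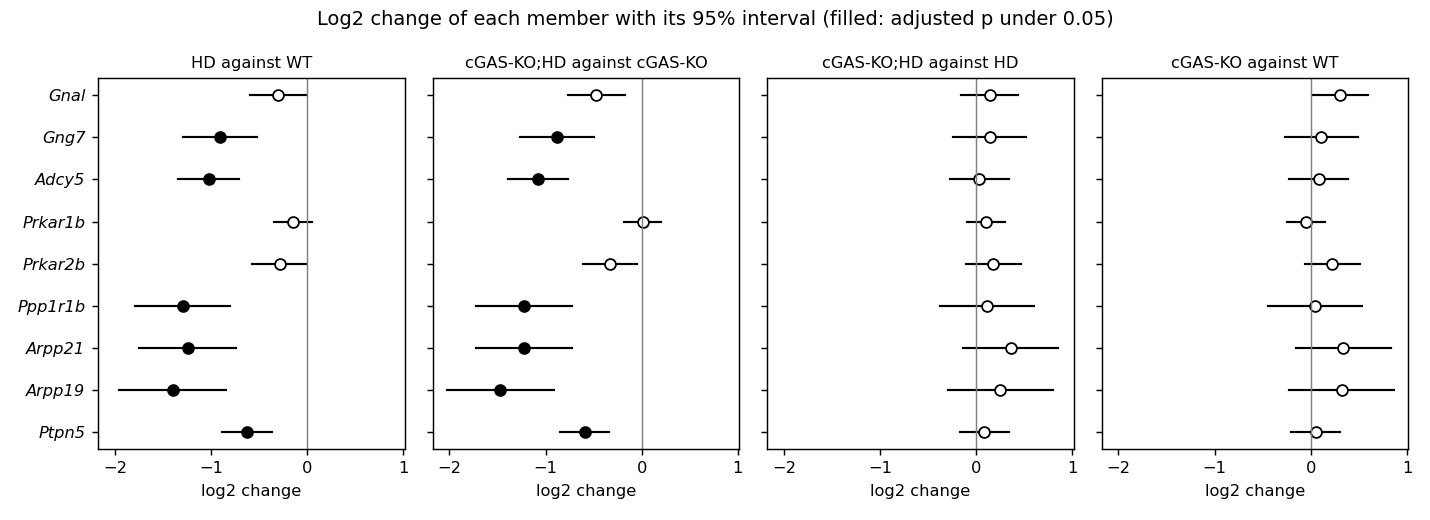
Log2 change of each member (point) with its 95% interval (line) in 4 comparisons, with filled points for edgeR adjusted p under 0.05. In both knock-in comparisons 6 points are filled, from Arpp19 at -1.40 and -1.47 to Ptpn5 at -0.62 and -0.59, and in both cGAS comparisons all points are open, between -0.05 and 0.36.

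Cortical markers moved with the knock-in comparison, with a median log2 change of -1.89 over the 10 genes in HD against WT and -1.02 in the double mutants against cGAS-KO (1 of 10 called in each, Rspo1). In WT replicate 1 the cortical sum of 212 CPM was inside the HD range. Of the 9 members in that library, 7 were above every HD library, among them Ppp1r1b (717 CPM) and Arpp19 (235 CPM). Prkar1b was above only narrowly (491.4 against 491.1 CPM in HD replicate 1). Gnal (508 CPM) and Prkar2b (82.9 CPM) were below HD replicate 1 (547 and 96.7 CPM). Its sum of thalamus, septum and pallidum markers, 648 CPM, was likewise inside the HD range. WT replicate 1 was the lowest WT library for each of the 9 members. The 7 are thus the members lower in HD than in WT without overlap, beside 13.1% of all genes. With WT replicate 1 and cGAS-KO replicate 3 both left out, a choice made after seeing the data, 8 members were called lower in HD. These added Gnal (log2 change -0.39, edgeR adjusted p = 0.0438) and Prkar1b (-0.21, edgeR adjusted p = 0.0203), while 16.5% of all genes were called in that fit. In the double mutants against cGAS-KO the count stayed at 6, with 8.31% of all genes called. Both libraries left out were the only ones of their groups with high Xist (1232 and 1588 CPM). HD and the double mutants kept their libraries with high Xist. Tissue and Xist level therefore cannot be told apart in that fit, for these values and for others of it given below. What part neighbouring tissue has in the size of the members' changes was not tested beyond these values.

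Loss of cGAS was examined in both genetic backgrounds. No member was called in the double mutants against HD, where 0.00469% of all genes were called, nor in cGAS-KO against WT, where 0% were. At an unadjusted p under 0.05, 1232 and 913 genes passed in these comparisons. The member medians were 0.14 and 0.11 on the log2 scale, against 0.01 and 0.00 for all genes. Against HD, the double mutants' log2 changes ran from 0.03 for Adcy5 (interval -0.28 to 0.34) to 0.36 for Arpp21 (interval -0.14 to 0.85). Ppp1r1b changed by 0.11 (interval -0.38 to 0.60) and Arpp19 by 0.25 (interval -0.30 to 0.80). The intervals leave room for rises of at most 1.27-fold in Adcy5 and 1.51-fold in Ppp1r1b, short of the 2.04-fold and 2.45-fold by which WT exceeded HD. Prkar1b was the single member whose double-mutant libraries (511, 515 and 524 CPM) were all above those of HD, at 0.10 ± 0.09 (edgeR adjusted p = 0.780). Over all genes, 8.76% were higher without overlap in this comparison, so 1 of 9 is near the background.

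In mice without the knock-in, cGAS-KO against WT gave log2 changes from -0.05 ± 0.09 for Prkar1b to 0.34 ± 0.23 for Arpp21. Gnal was 0.30 ± 0.14 (interval 0.01 to 0.60, edgeR adjusted p = 0.919), with cGAS-KO replicate 3 (811 CPM) well above the other 2 (692 and 605 CPM). All 9 members overlapped between these groups, where 8.79% of all genes did not overlap in one direction or the other.

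The test of whether the knock-in effect differed with cGAS status, the interaction, called no member and 0.00469% of all genes (606 genes at an unadjusted p under 0.05). Here a negative value means a larger decrease without cGAS. Estimates ran from -0.17 ± 0.19 for Gnal (interval -0.58 to 0.25) to 0.15 ± 0.13 for Prkar1b (interval -0.12 to 0.43). The interval was -0.49 to 0.39 for Adcy5, -0.62 to 0.76 for Ppp1r1b, -0.68 to 0.72 for Arpp21 and -0.85 to 0.71 for Arpp19. Each of these is too wide to show that the 2 effects are equal.

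The members were set against a panel of medium spiny neuron markers. The 12 markers (10 lower in HD against WT, 9 lower in the double mutants against cGAS-KO) had median log2 changes of -1.31 and -1.35. In HD, the log2 change of Ppp1r1b differed from the marker median by 0.02, that of Arpp21 by 0.07 and that of Arpp19 by -0.09. Adcy5 fell less than the marker median by 0.29 and Gng7 by 0.40, and Ptpn5 by 0.69. Gnal (1.01), Prkar2b (1.03) and Prkar1b (1.17) lay above all 12 markers. The double mutants gave differences of 0.13 for Ppp1r1b, 0.13 for Arpp21, -0.12 for Arpp19, 0.28 for Adcy5, 0.47 for Gng7 and 0.76 for Ptpn5. Here Ptpn5, Gnal (0.88), Prkar2b (1.02) and Prkar1b (1.36) lay above all 12, whereas Ptpn5 had lain above 11 of them in HD. These differences are descriptions with no test of their own.

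**Figure D3:**
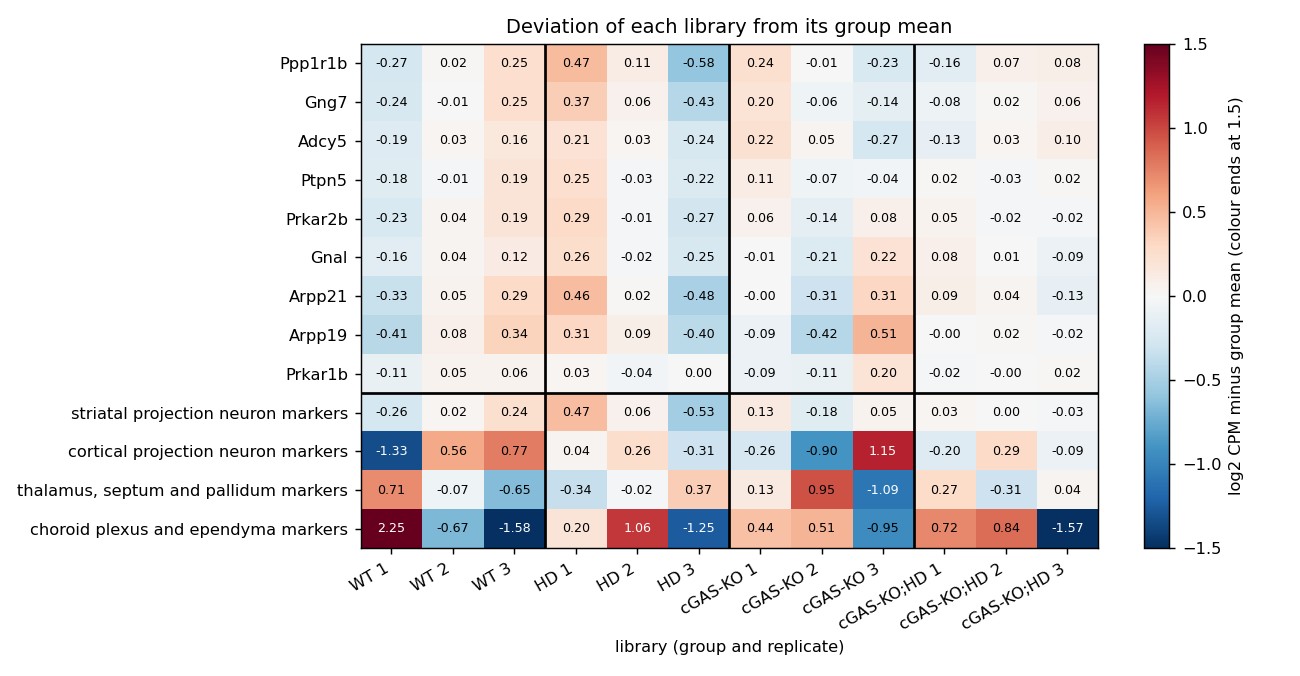
Heat map of log2 CPM minus the group mean for the 9 members (upper rows) and the mean of 4 marker lists (lower rows) in each of the 12 libraries, with the value in each cell and colours ending at 1.5. WT replicate 1 and HD replicate 3 are low for Ppp1r1b (-0.27 and -0.58) and for medium spiny neuron markers (-0.26 and -0.53), and in cGAS-KO replicate 3 Adcy5 is low (-0.27) while Arpp19 is high (0.51).

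Within groups the members did not all move together from library to library. HD replicate 1 was above and HD replicate 3 below the group mean for Ppp1r1b (0.47 and -0.58 in log2 CPM), Gng7 (0.37 and -0.43) and Arpp21 (0.46 and -0.48), and the marker panel did the same (0.47 and -0.53). In cGAS-KO replicate 3 the members parted. Arpp19 (0.51), Arpp21 (0.31), Gnal (0.22) and Prkar1b (0.20) were above the group mean, whereas Adcy5 (-0.27), Ppp1r1b (-0.23) and Gng7 (-0.14) were below it. That library also had the highest cortical deviation (1.15). Among the 6 members that fell, Pearson's r of log2 CPM over 12 libraries was 0.900 to 0.995 for the 15 pairs. After removal of the group means it was 0.217 to 0.986, and libraries share their tissue composition, so these are descriptions.

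Each member's closest companion by Pearson's r of log2 CPM over the 12 libraries, among 12074 genes with a mean of at least 5 CPM, was sought as a description. For Ppp1r1b the first 5 were Gpr6 (0.993), Lingo3 (0.993), Kcnip2 (0.992), Rgs9 (0.990) and Rem2 (0.989). Gng7 paired with Drd1 (0.994), Adcy5 with the calcium-dependent phosphodiesterase Pde1b (0.996), Arpp21 with Mchr1 (0.993), Arpp19 with Gsg1l (0.996) and Ptpn5 with Kcnip2 (0.993). Prkar2b, which was not called, was closest to Tac1 (0.985), the substance P precursor of D1-type neurons, and Gnal to Mctp1 (0.980). Prkar1b had the lowest best match, Sh3rf1 (0.942). The 12 libraries span 4 genotypes, and differences between the group means enter these values.

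Several members have paralogs, and the share of such a member in its family was taken on the scale of CPM per kb. The size of a share, and which paralog is larger, depend on the annotated exon lengths. Whether a paralog can stand in for a member was not tested. Adcy5 made up 54.9% ± 0.927 of the 9 membrane cyclases in WT and 41.4% ± 6.01 in HD, and 56.4% ± 6.83 in cGAS-KO with 43.5% ± 1.07 in the double mutants. The highest knock-in library (46.9%) was below the lowest library without the knock-in (48.7%, cGAS-KO replicate 3). Summed over the family, cyclase RNA was 174 ± 23.0 CPM per kb in WT and 113 ± 1.64 in HD. Gng7 was 39.6% ± 4.33 of 8 gamma subunits in WT against 25.2% ± 4.80 in HD, and 40.2% ± 9.19 in cGAS-KO against 24.1% ± 3.38 in the double mutants. The lowest cGAS-KO library (replicate 3, 30.0%) was just above the highest HD library (29.3%). In HD and the double mutants its mean share was below that of Gng3 (33.5% and 37.1%), another neuronal gamma subunit. Gng3 had 27.5% in WT and 27.7% in cGAS-KO. In cGAS-KO replicate 3, a library without the knock-in, Gng3 (35.4%) was also above Gng7 (30.0%).

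The share of Arpp19 in the sum of Arpp19 and its paralog Ensa was 62.0% ± 2.89 in WT and 38.4% ± 5.22 in HD, and 64.5% ± 4.28 in cGAS-KO with 41.4% ± 0.519 in the double mutants. Ensa itself was at 38.9 ± 5.59 CPM per kb in WT and 38.7 ± 1.47 in HD. On this scale Arpp19 was the larger of the pair in all 6 libraries without the knock-in and the smaller in all 6 with it. For Gnal against Gnas, the more widely expressed stimulatory alpha subunit, the share was 33.5% ± 5.08 in WT against 28.3% ± 4.61 in HD, and 39.0% ± 3.17 in cGAS-KO against 30.3% ± 0.935 in the double mutants, with overlap between WT and HD. Prkar1b made up 41.2% ± 0.967 of the regulatory subunits in WT and 37.5% ± 0.295 in HD, and Prkar2b 7.89% ± 0.832 and 6.53% ± 1.16.

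**Figure D4:**
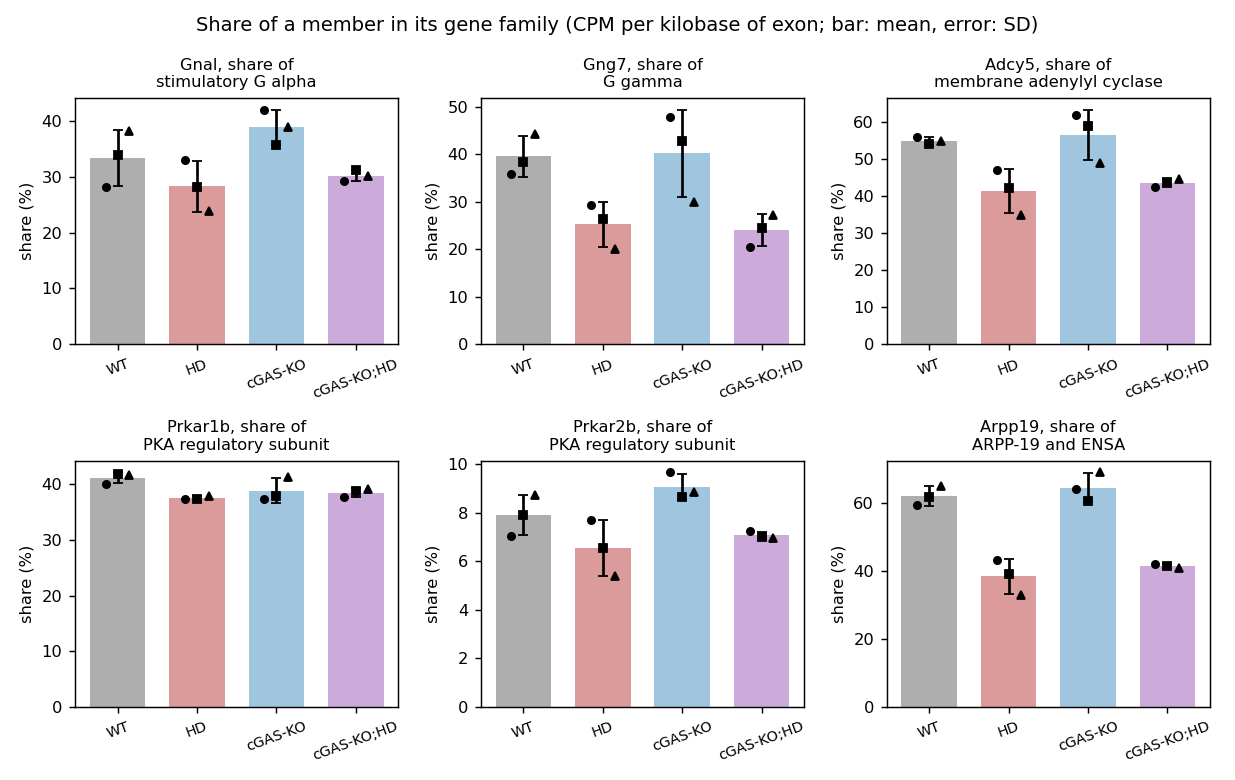
Share of a member in the summed CPM per kb of its gene family, as bars from 0 for the mean of 3 libraries with SD, and points for libraries (circle, square and triangle for replicates 1 to 3). Bars of Adcy5, Gng7 and Arpp19 are lower in HD and the double mutants (41.4% and 43.5%, 25.2% and 24.1%, 38.4% and 41.4%) than in WT and cGAS-KO, and those of Prkar1b lie between 37.5% and 41.2%.

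The rest of the pathway was read from 135 further genes in 12 roles, of which 134 were matched and tested. In HD against WT 22 fell, 1 rose (Gng11) and 111 were not called (median log2 change -0.14), beside 4.1% called over all genes. Without cGAS, the double mutants against cGAS-KO, 26 fell and 108 were not called (median -0.17), beside 3.96% over all genes. A count of 0 or 1 in a role, given below, is too small to be set apart from those shares. The same 17 genes were called in both, which is 73.9% of the first set and 65.4% of the second. The first count was 39 without WT replicate 1, 10 without WT replicate 2, 8 without WT replicate 3, 9 without HD replicate 2 and 11 without HD replicate 3. The second was 12 without cGAS-KO replicate 1, and 12, 10 and 13 without double-mutant replicates 1, 2 and 3. Here too, shares of all genes called in these fits are not given. None of the 134 was called in either cGAS comparison or in the interaction. Of the 22 genes named below as called in HD, 6 kept the call under all 15 other settings (Adora2a, Cnr1, Pde10a, Pde1b, Ppp1r9b and Ppp1r16b), and the others lost it under 1 to 8 of them. Of 21 in the double mutants, 9 kept it (these 6 with Gpr6, Drd1 and Ppp1ca), and the others lost it under 1 to 9.

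Receptors led the list. Of 7 tested receptors coupled to Golf or Gs, 4 fell in HD and 5 in the double mutants against cGAS-KO. Adora2a, the adenosine receptor of D2-type neurons, measured 89.5, 116 and 137 CPM in WT and 38.4, 29.4 and 21.5 CPM in HD, with a log2 change of -1.94 ± 0.20 (edgeR adjusted p = 0.000442). Its fall in the double mutants was 2.04 ± 0.20 (edgeR adjusted p = 0.000266). Drd1, the dopamine receptor that drives Golf, went from 105, 129 and 154 CPM in WT to 70.0, 52.7 and 31.9 CPM in HD (log2 change -1.33 ± 0.24, edgeR adjusted p = 0.0114), and by -1.44 ± 0.24 in the double mutants. The constitutively active receptor Gpr6 changed by -1.59 and -1.68. Htr4, a serotonin receptor, was called in the double mutants (-0.68 ± 0.13) and not in HD (-0.19 ± 0.13).

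Receptors that oppose the cyclase fell as well, 4 of 10 in HD and 5 of 10 in the double mutants. Drd2 measured 112, 136 and 149 CPM in WT and 71.8, 50.2 and 31.2 CPM in HD, a log2 change of -1.37 ± 0.28 (edgeR adjusted p = 0.0220), and changed by -1.28 ± 0.28 in the double mutants. The HD call was lost under 5 of 15 other settings (among them without WT replicate 2, WT replicate 3 or HD replicate 2) and the double-mutant call under 8. The latter included each fit without cGAS-KO replicate 1 or 3 or a double-mutant library, with edgeR adjusted p of up to 0.121. The cannabinoid receptor Cnr1 changed by -1.12 and -1.09, the muscarinic receptor Chrm4 by -1.42 and -1.29, and the delta opioid receptor Oprd1 by -1.15 and -0.97. Drd1, Drd2, Adora2a, Gpr6 and Pde10a also stand in the marker panel used above.

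Other G protein genes changed little. Of 19 subunits and chaperones none fell in HD and 1 rose. That was Gng11, another gamma subunit, with 14.0, 11.2 and 11.1 CPM in WT and 19.3, 25.9 and 23.8 CPM in HD, at 0.93 ± 0.19 (edgeR adjusted p = 0.0176). Without cGAS it was at 0.73 ± 0.19 (edgeR adjusted p = 0.0525). There 2 of the 19 fell, Gnb5 (-0.47 ± 0.12) and Ric8b (-0.36 ± 0.09), a chaperone of Golf and Gs alpha subunits. Their changes in HD were -0.36 and -0.26 and not called. Gnas was at 0.02 ± 0.12 in HD and 0.09 ± 0.12 in the double mutants.

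Among 11 other cyclase and cyclase-associated genes 1 was called, Adcy9, at -0.51 ± 0.12 and -0.50 ± 0.12 (edgeR adjusted p = 0.0328 and 0.0372). Each Adcy9 call was lost under 7 of 15 other settings, among them the replicate block and Xist as a covariate, with adjusted p of up to 0.170 and 0.159. Of 7 other PKA subunits and inhibitors, 1 fell in HD and none in the double mutants. It was Pkig, a PKA inhibitor, at -0.60 ± 0.14 (edgeR adjusted p = 0.0271) and -0.37 ± 0.14 (edgeR adjusted p = 0.165). The catalytic subunits were not called, with Prkaca at -0.06 ± 0.09 and Prkacb at 0.07 ± 0.10 in HD, and intervals of -0.25 to 0.12 and -0.16 to 0.30. The regulatory subunit Prkar1a was at 0.13 ± 0.07 and Prkar2a at 0.13 ± 0.06. One of 15 A-kinase anchoring proteins passed in HD, Akap8l at -0.28 ± 0.06 (edgeR adjusted p = 0.0235), and none did in the double mutants. None of 9 other cAMP effectors was called in either comparison. The smallest p among them over both comparisons was that of the channel Hcn3, at 0.46 ± 0.12 in the double mutants (edgeR adjusted p = 0.0600) and 0.18 ± 0.12 in HD.

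Phosphodiesterases, which end the cAMP signal, fell at 3 of 15 genes, the same 3 in both comparisons. Pde10a, the main phosphodiesterase of medium spiny neurons, measured 587, 739 and 856 CPM in WT against 335, 254 and 187 CPM in HD. Its levels were 1008, 800 and 867 CPM in cGAS-KO against 262, 288 and 275 CPM in the double mutants. Neither knock-in group reached its control. Its log2 changes were -1.49 ± 0.19 and -1.70 ± 0.19 (edgeR adjusted p = 0.00127 and 0.000460). Pde1b changed by -1.06 ± 0.15 and -1.25 ± 0.15, and Pde7b by -0.57 ± 0.13 and -0.72 ± 0.13.

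Protein phosphatase 1, the enzyme that DARPP-32 inhibits, and its regulators fell at 4 of 9 genes in HD and 6 of 9 in the double mutants. Ppp1r9b (spinophilin, which holds the phosphatase in dendritic spines) measured 688, 831 and 888 CPM in WT and 494, 503 and 487 CPM in HD, with log2 changes of -0.70 ± 0.09 and -0.62 ± 0.09 (edgeR adjusted p = 0.00166 and 0.00298). Ppp1r16b changed by -0.57 and -0.62, the catalytic subunit Ppp1ca by -0.48 and -0.55, and inhibitor-1 (Ppp1r1a, the paralog of DARPP-32) by -1.07 and -0.85. Of 18 kinases and phosphatases that act on DARPP-32 or the ARPP proteins, 2 fell in HD and 4 in the double mutants. Calcineurin A alpha (Ppp3ca), which dephosphorylates DARPP-32, fell by 0.91 ± 0.18 and 0.96 ± 0.18 (edgeR adjusted p = 0.0140 and 0.0110). The Cdk5 activator Cdk5r2 was called in HD (-0.67 ± 0.16) and not in the double mutants (-0.48 ± 0.16), and for Cdk5r1 (-0.37 and -0.48) and the phosphatase 2A subunit Ppp2r2a (-0.45 and -0.49) it was the reverse. The interaction called none of them, but with WT replicate 1 and cGAS-KO replicate 3 both left out it called Cdk5r2 (0.55, edgeR adjusted p = 0.0385), in a fit that called 0.483% of all genes.

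Farther down, 1 of 8 genes of CREB and its coactivators fell in HD, Crtc1 (-0.49 ± 0.10, edgeR adjusted p = 0.0140), and none in the double mutants, where Crtc1 was at -0.25 ± 0.10. One of 6 STEP substrates fell in HD, the kinase Ptk2b (-0.91 ± 0.23, edgeR adjusted p = 0.0484), and none in the double mutants, where Ptk2b was at -0.82 ± 0.23 (edgeR adjusted p = 0.0729).

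**Figure D5:**
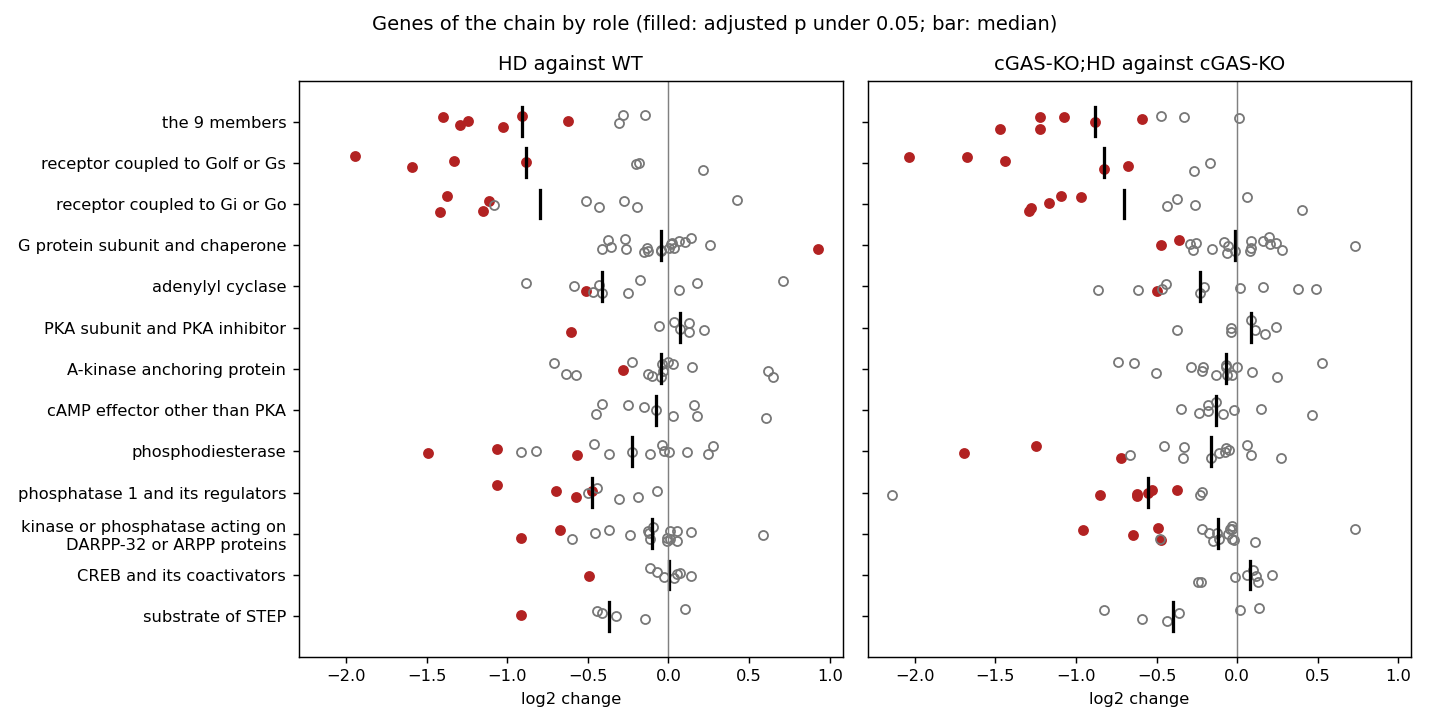
Log2 changes of the 9 members and of the other genes of the chain in 12 roles, 1 point per gene, filled where the edgeR adjusted p was under 0.05, with a vertical bar at the median of each role. Receptors, phosphodiesterases and phosphatase 1 genes hold most filled points below 0, while PKA subunits, anchoring proteins and CREB genes gather around 0 in both panels.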

How the data were processed

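RNA of the striatum was sequenced from 12 mice, 3 per group, as poly(A)-selected libraries made, per the labels' protocols, with a strand-keeping kit. Each library's deposited file gives unnormalized read counts per Ensembl gene as the authors counted them, with aligner, annotation, build and counting rule not given in the sources used here. Symbols, exon lengths and gene positions came from GENCODE M21, which named 99.4% of genes, and unnamed genes held at most 0.0611% of counts.

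The members, gene lists, markers and tests were chosen with earlier results of these data known. Genes were kept by filterByExpr (minimum count 10, minimum total 15) and scaled by TMM. The 4 group means entered a single robust quasi-likelihood fit in edgeR (12 libraries, 8 residual degrees of freedom, no covariates). A gene was called at a Benjamini-Hochberg adjusted p under 0.05 over 21309 genes, and intervals are at 95%. Log2 CPM used a prior count of 2. Of the pathway list, Gpr52 was not matched. Named were all members, Htt and Cgas, up to 4 called genes of each role by adjusted p (or the 1 with the smallest p where none was called), and the nearest genes by correlation outside the members (5 for Ppp1r1b, 1 for the others). Prkar1a, Prkar2a, Prkaca, Prkacb, Gnas, Ensa and Gng3 were named after their values were seen. On simulated counts for HD against WT the fit called 25 of 50 genes with a 1.5-fold change, and of 50 each it called 38 (2-fold), 43 (4-fold) and 36 (8-fold), while 7 of its 149 calls were false. Alternatives were other scaling, filters, thresholds and tools, a fit on the compared groups, Xist as a covariate, the replicate number as a block, and each library left out. Software was edgeR 4.0.16 on R 4.3.3, with DESeq2 1.42.0 and limma 3.58.1 for alternatives.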

Additional observations from a re-analysis of the deposited data

How the results depend on the processing

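In the 2 knock-in comparisons the members' log2 changes were refitted 270 times in all, of which 228 kept direction and side of the threshold, 34 kept direction but missed it, 4 newly passed and 4 changed sign, all of these for Prkar1b. Lost member calls had adjusted p from 0.0505 to 0.0844. In HD against WT the number of members called was 3 on the compared groups alone, 2 at a threshold of 0.01, and 2 to 6 with 1 library left out. In the double mutants against cGAS-KO it was 2 at a threshold of 0.01 and 1 to 7 with 1 library left out. Pathway genes called in HD against WT numbered 36 with DESeq2, 8 at a threshold of 0.01, 8 to 39 with 1 library left out, and 58 with WT replicate 1 and cGAS-KO replicate 3 both left out, a choice made after seeing earlier results. In the double mutants against cGAS-KO they numbered 10 at a threshold of 0.01 and 10 to 28 with 1 library left out. The cause of these differences was not tested. Apart from the fit with both libraries left out, the share of all genes called under these settings is not given here.

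Replicate numbers were not taken as pairs: over 18 pairs the correlations of same-numbered libraries ran from -0.231 to 0.203, with 2 over 0.1. These correlations run over all genes tested. Choroid plexus and ependyma markers were lowest in replicate 3 of every group (70.9, 272, 216 and 94.9 CPM in WT, HD, cGAS-KO and double mutants). Whether same-numbered libraries shared their handling was not tested. With a replicate block 6 members were called in each knock-in comparison, and pathway genes called numbered 17 and 16 (against 23 and 26 without it), with 507 and 596 of all genes.

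Signs of uncalled values changed as follows. With the Xist level as a covariate, Prkar1b in the double mutants against cGAS-KO was -0.0040. With both libraries left out, Arpp19 was -0.16 and Ptpn5 -0.016 in cGAS-KO against WT, the interaction was 0.030 for Gnal, 0.10 for Prkar2b and 0.42 for Arpp19, and 2 pathway genes were called in the interaction (Adcy2, 0.49, adjusted p = 0.0372, and Cdk5r2, 0.55, adjusted p = 0.0385), beside 105 of 21724 genes overall (0.483%). With 1 library left out, Prkar1b ranged from -0.046 to 0.11 in the double mutants against cGAS-KO. In cGAS-KO against WT the ranges were -0.0079 to 0.25 for Gng7, -0.035 to 0.21 for Adcy5, -0.087 to 0.17 for Ppp1r1b, -0.039 to 0.16 for Ptpn5 and -0.15 to 0.0055 for Prkar1b. In the double mutants against HD they were -0.044 to 0.34 for Gng7, -0.076 to 0.15 for Adcy5, -0.12 to 0.37 for Ppp1r1b and -0.018 to 0.22 for Ptpn5. In the interaction they were -0.18 to 0.068 for Adcy5, -0.16 to 0.12 for Prkar2b, -0.26 to 0.22 for Arpp19, -0.15 to 0.23 for Gng7, -0.16 to 0.33 for Ppp1r1b, -0.18 to 0.29 for Arpp21 and -0.073 to 0.17 for Ptpn5.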
